A study of Mus musculus with 8 samples.

Results

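The genes described here are 32 transcripts of the unfolded protein response and the integrated stress response, listed by name and found by symbol among the 54385 Ensembl genes of a count table from mouse brown fat. All 32 passed the filter on low counts, which left 14553 genes. They were sorted by role into 11 genes of protein folding in the endoplasmic reticulum (ER), 5 stress sensors and their direct effectors, 8 regulators of the integrated stress response, and 8 genes of amino acid and one-carbon metabolism. The series compared polyadenylated RNA of brown adipose tissue from C57BL/6N mice of 20 weeks on chow, with 4 libraries per group. In both groups Adcy3, which encodes an adenylyl cyclase that makes cyclic AMP, was floxed. The WT group is labelled as lacking the Cre recombinase and the cKO group as carrying 1 copy of Adipoq-Cre, in which the adiponectin promoter drives the recombinase in adipocytes, so that Adcy3 of other cell types in the tissue is not targeted. The sample labels place the tissue between the shoulder blades, whereas the design text calls it inguinal. WT replicate 4 is WT by its title although its genotype field lists the Cre allele, and the closing values include fits with that library left out or moved.

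The ER folds secreted and membrane proteins, and an excess of unfolded protein there is sensed by 3 membrane proteins, encoded by Ern1, Atf6 and Eif2ak3. ERN1 splices the mRNA of Xbp1, ATF6 is cut into a transcription factor, and both raise chaperone transcription. EIF2AK3 and the amino acid sensor EIF2AK4 phosphorylate the initiation factor eIF2, which lowers protein synthesis in general while translation of the transcription factor ATF4 goes up, and ATF4 then drives genes of amino acid supply. Much of this control acts on splicing, cleavage, phosphorylation and translation, which counts per gene do not measure. In brown fat, the heat-producing fat of mammals, ER folding and stress signalling have been studied in connection with secretion, lipid synthesis and mitochondrial stress.

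The libraries held 10713043 to 32437214 estimated counts. Adcy3 was lower in every cKO library, at 18.0 to 25.3 CPM (counts scaled to a common library total, with TMM factors), than in any WT library, at 61.7 to 118 CPM (edgeR adjusted p = 0.000925, log2 fold change -2.26 ± 0.21 (SE)), and WT replicate 4 stood at 118 CPM. The 10 adipocyte markers listed for brown fat summed to 11170 to 12940 CPM in WT and 10010 to 14010 CPM in cKO. The list includes genes not limited to brown adipocytes, such as Fabp4, Adipoq and Lep. Fabp4 alone had a mean of 5876 CPM in WT and 5783 CPM in cKO. The sums thus do not measure brown adipocytes alone. Levels of the 10 differed widely, with Ucp1 at 2233 to 4545 CPM and Ppargc1a at 23.5 to 60.3 CPM. Transcripts of 11 skeletal muscle genes summed to 38.7 to 8182 CPM in WT and 142 to 10410 CPM in cKO, with the highest sums in WT replicate 4 and cKO replicate 1. Plasma and B cell markers, listed because antibody-secreting cells are rich in ER chaperones, summed to 15.2 to 19.5 CPM in WT and 8.69 to 21.9 CPM in cKO, with Mzb1 at 0 in 7 of the 8 libraries. The 6 pancreatic acinar markers summed to 1.21 to 4.48 CPM in WT and 1.60 to 4.40 CPM in cKO. Most of this was Cela1, while Cpa1 and Pnlip were at 0 in every library. Macrophage markers summed to 73.7 to 110 CPM in WT and 54.0 to 123 CPM in cKO, lowest in cKO replicate 2. In bulk tissue, fewer cells of a type and less RNA per cell cannot be told apart.

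None of the 32 genes was called by edgeR's quasi-likelihood test at an adjusted p of 0.05, where 0.0687% of all genes tested were, 0.0481% higher and 0.0206% lower in cKO. DESeq2 and limma-voom also called 0 of the 32, against 0.316% and 0.0687% of all genes. The lowest adjusted p was 0.882, for Atf6, which was the 1 member with an unadjusted p under 0.05, a share of 3.12% against 5.6% of all genes. The groups did not overlap for 0 of the 32, against 3.5% of all genes. Log2 fold changes ran from -0.44 to 0.40, with 22 positive and 10 negative and a median of 0.12. Over all genes tested the median was 0.01 and 51.8% were positive. The 95% interval lay within a 1.5-fold change in either direction for 20 of the 32 genes and within a 2-fold change for 27. Over all 14553 genes tested the same counts were 7654 and 11446.

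**Figure D1:**
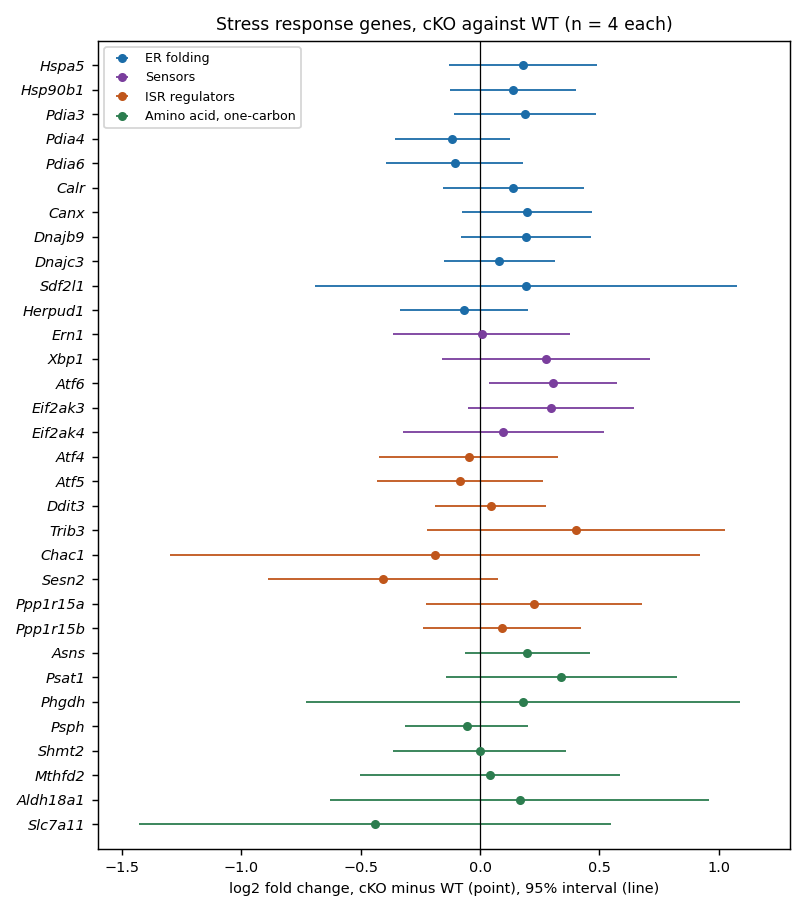
Fitted log2 fold change of the 32 genes, cKO minus WT, with the 95% interval as a line and colour for the role of the gene (n = 4 libraries per group). The interval of Atf6 (0.04 to 0.57) lies to the right of 0, while the 31 other intervals include 0; those of Chac1 and Slc7a11, 2 genes of low level, are among the widest.

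Levels of different genes were compared as counts per kilobase of transcript, scaled to a common total in each library without TMM factors. In WT the 11 ER folding genes made up 600 ± 38.8 such units in sum, the 8 regulators 279 ± 36.3, the 8 metabolic genes 121 ± 8.77 and the 5 sensors and effectors 82.3 ± 12.0 (SD, n = 4). In cKO the sums were 582 ± 42.6, 245 ± 22.5, 117 ± 10.3 and 86.7 ± 12.5. The 4 highest genes in WT were Hsp90b1 at 116 ± 8.24, Atf5 at 113 ± 31.3, Calr at 106 ± 11.8 and Atf4 at 85.5 ± 15.4. The means of Hsp90b1, Atf5 and Calr lay within the SD of Atf5 of each other, and that of Atf4 lay further below Calr than either SD. At the other end Slc7a11 stood at 0.214 ± 0.062, Sdf2l1 at 1.49 ± 0.686, Chac1 at 2.50 ± 0.673 and Mthfd2 at 2.76 ± 0.633. Length was the median of a gene's protein-coding transcripts. With the longest transcript instead, the level of Ern1 moved from 14.1 to 3.58, that of Psph from 35.2 to 13.2 and that of Asns from 53.9 to 32.7, and Atf5 came first.

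**Figure D2:**
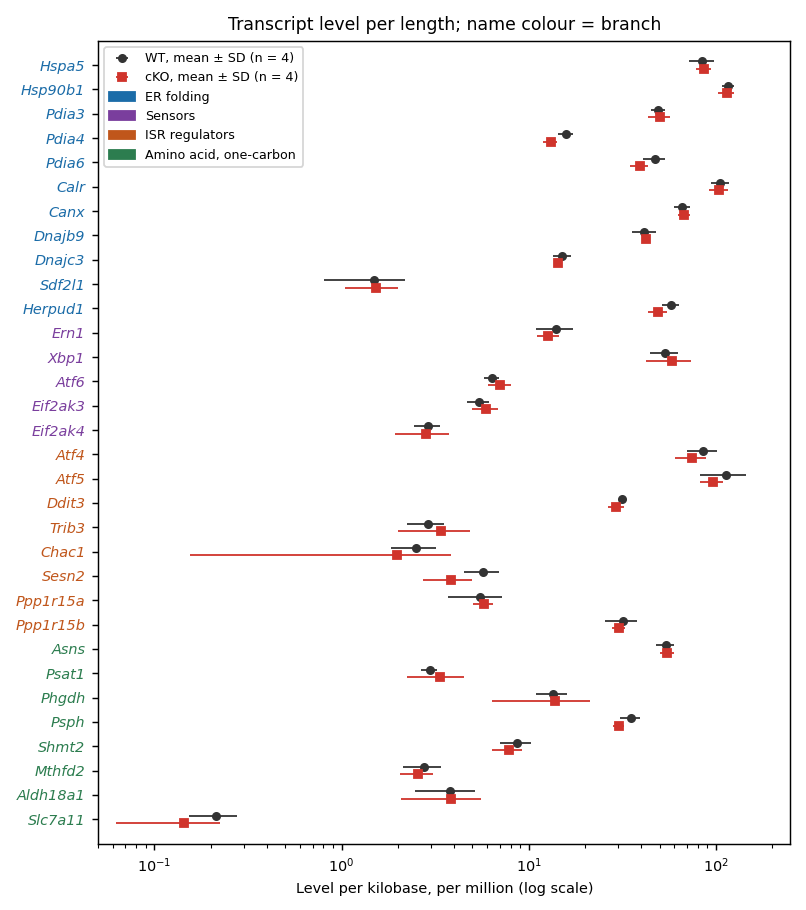
Level of each gene per kilobase, scaled to a common library total, on a log axis, as mean ± SD of 4 libraries for WT (circles) and cKO (squares), with name colour for role. Hsp90b1, Calr, Hspa5, Atf5 and Atf4 lie at the upper end, at up to 116 in WT, and Slc7a11 lies lowest, at 0.214 in WT and 0.143 in cKO.

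The scale bears on the direction. Mitochondrially encoded transcripts took 37.7% of the per-length total in WT and 43.2% in cKO, and the median per-length ratio over all genes tested was -0.15 on the log2 scale. On that scale the median of the 32 genes was -0.03, with 14 above 0, whereas on TMM-scaled CPM it was 0.12, with all genes tested at 0.01. The median of the 32 thus lay above that of all genes on both scales, and its sign depends on the scale.

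Most of the ER folding genes were abundant, Sdf2l1 being the scarce exception, and none passed the test between groups. Hspa5 encodes BiP, the Hsp70 chaperone of the ER that also holds the sensors inactive. It stood at 231, 191, 164 and 246 CPM in WT replicates 1 to 4 and at 200, 229, 259 and 253 CPM in cKO replicates 1 to 4 (208 ± 37.2 and 235 ± 26.8 CPM). Only WT replicates 2 and 3 lay below all cKO libraries, and the groups overlapped (log2 fold change 0.18 ± 0.14 (SE), 95% interval -0.13 to 0.49, edgeR adjusted p = 0.901). Hsp90b1, the Hsp90 of the ER, held 198, 160, 168 and 188 CPM in WT and 166, 195, 226 and 199 CPM in cKO, with its highest value in cKO replicate 3 (log2 fold change 0.14, with a 95% interval from -0.13 to 0.40). Calr, the calcium-binding lectin chaperone calreticulin, held 214, 156, 175 and 175 CPM in WT and 160, 201, 231 and 199 CPM in cKO, again highest in cKO replicate 3 (log2 fold change 0.14, with a 95% interval from -0.16 to 0.43).

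Canx, which encodes calreticulin's membrane-bound relative calnexin, had a WT mean of 207 ± 24.5 and a cKO mean of 238 ± 28.3 CPM. Among the disulfide isomerases, Pdia3, which works with both lectins, had 106 ± 11.6 and 121 ± 20.2 CPM. Pdia4 and Pdia6 had negative log2 fold changes of -0.12 and -0.11, at 29.5 ± 2.87 and 27.2 ± 1.98 CPM and at 79.6 ± 11.8 and 74.0 ± 9.67 CPM. The J-domain co-chaperones of BiP, Dnajb9 and Dnajc3, had 46.0 ± 7.58 and 52.5 ± 4.35 CPM and 60.5 ± 6.62 and 64.0 ± 3.28 CPM. Herpud1, a membrane protein of ER-associated degradation, had 83.4 ± 6.88 and 79.7 ± 12.5 CPM. Sdf2l1, an ER co-chaperone, was scarce, at 1.29 ± 0.586 and 1.47 ± 0.472 CPM. Of the 11, edgeR called 0 and 0 had an unadjusted p under 0.05, 8 log2 fold changes were positive and the median was 0.14. For 10 of the 11 the 95% interval lay within a 1.5-fold change, the exception being Sdf2l1 (-0.69 to 1.08). This was so for 7654 of all 14553 genes tested.

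The chaperone promoters carry a known element, the ER stress response element (ERSE), which is read by ATF6 and XBP1 together with NF-Y. The letters CCAAT, 9 bases of any kind and then CCACG were searched on both strands in RefSeq promoter windows of GRCm38.p6, from 250 bases before to 50 after each start. A match was found in 6 of the 11 ER folding genes, in 0 of the other members, and in 0.119% of all 32851 windows, or 0.137% of genes with a window. Atf6 and Ppp1r15b had no window in the table. The sites are shown because the 6 genes include the most abundant chaperones of the set, written along the gene's strand with the match in capitals and 5 bases on either side.
Hspa5 (chr2:34772020-34772048, plus strand): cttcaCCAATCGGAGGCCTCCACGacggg
Hsp90b1 (chr10:86705528-86705556, minus strand): gagtgCGTGGTGAGGCACGATTGGtgagt
Hsp90b1 (chr10:86705633-86705661, minus strand): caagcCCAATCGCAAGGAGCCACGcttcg
Calr (chr8:84847070-84847098, minus strand): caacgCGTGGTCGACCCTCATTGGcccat
Canx (chr11:50325795-50325823, minus strand): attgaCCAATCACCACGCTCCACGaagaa
Pdia6 (chr12:17266486-17266514, plus strand): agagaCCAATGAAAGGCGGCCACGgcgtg
Dnajc3 (chr14:118937822-118937850, plus strand): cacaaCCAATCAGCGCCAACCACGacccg
In Calr and in the Hsp90b1 site nearer the start the element reads on the opposite strand. The Hspa5 site begins 65 bases before the RefSeq start and lies in a non-coding exon part of a longer GENCODE transcript of Hspa5, and the others lie outside annotated genes.

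Herpud1 held the related ERSE-II, searched as ATTGG, 1 base of any kind and then CCACG on both strands. It was found in 0.0365% of windows, or 0.0444% of genes with a window. A shorter core of the amino acid response element, TGATGNAA, which ATF4 binds with C/EBP partners, was present in 3.97% of windows, or 4.51% of genes with a window. It was present in 5 of the 30 members with a window, namely Asns, Slc7a11, Chac1, Trib3 and Herpud1. This core is shown for Asns, where it lies 23 to 16 bases before the RefSeq start and in an exon part of Asns outside the coding sequence, and for Chac1, where it lies on the opposite strand and outside annotated genes.
Asns (chr6:7693220-7693237, minus strand): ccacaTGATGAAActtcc
Chac1 (chr2:119351044-119351061, plus strand): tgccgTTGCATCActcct
Capitals again mark the match. A match describes the letters in the window and was not tied to binding in these libraries. The median log2 fold change was 0.14 over the 6 ER folding genes with the ERSE and 0.19 over the 5 without it.

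**Figure D3:**
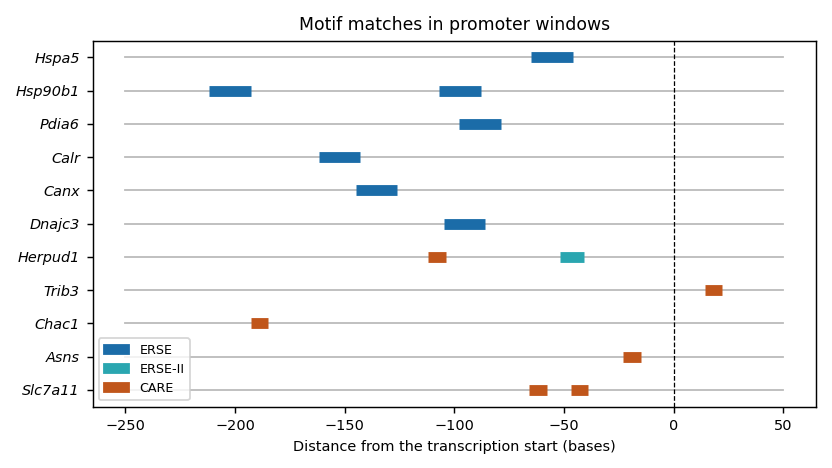
Position of each motif match relative to the RefSeq transcription start (dashed line) for the 11 members with a match; the grey line is the window searched, from 250 bases before to 50 after the start. ERSE matches lie between 212 and 47 bases before the start, and the match in Trib3 lies after it.

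Among the sensors, Atf6 gave the lowest p of the set. It held 37.9, 37.8, 30.7 and 36.5 CPM in WT and 45.5, 49.8, 35.8 and 45.5 CPM in cKO (35.7 ± 3.41 and 44.2 ± 5.94 CPM). Replicates 1, 2 and 4 of cKO lay above every WT library, and cKO replicate 3 lay within the WT range. The log2 fold change was 0.30 ± 0.12 (SE, 95% interval 0.04 to 0.57), with an unadjusted edgeR p of 0.0283 and an adjusted p of 0.882 over all genes. Without cKO replicate 3 the groups no longer overlapped and the unadjusted p was 0.00511 (edgeR adjusted p = 0.633), while without cKO replicate 2 it was 0.0929. With cKO replicate 3 left out, the groups did not overlap for 8.57% of all genes. Eif2ak3, the eIF2 kinase PERK of the ER membrane, ran between 10.05 and 13.0 CPM across WT libraries and between 11.6 and 17.5 CPM across cKO libraries (log2 fold change 0.30, with a 95% interval from -0.05 to 0.64).

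Xbp1, the target of ERN1 splicing, held 59.0, 41.1, 40.2 and 43.8 CPM in WT and 43.2, 54.6, 79.0 and 46.3 CPM in cKO. Its highest value, in cKO replicate 3, stood well above the others, and the next highest was WT replicate 1 (log2 fold change 0.28, with a 95% interval from -0.16 to 0.71). Counts per gene do not separate spliced from unspliced Xbp1. Ern1 itself held 18.5, 15.4, 10.6 and 12.9 CPM in WT and 15.8, 15.2, 12.6 and 14.3 CPM in cKO, so that every cKO value lay inside the WT range (log2 fold change 0.01, with a 95% interval from -0.36 to 0.38). Eif2ak4, the kinase GCN2 that senses uncharged transfer RNA, ran between 9.64 and 14.1 CPM across WT libraries and between 9.20 and 16.4 CPM across cKO libraries, highest in cKO replicate 1. All 5 log2 fold changes of this group were positive, with a median of 0.28, against 51.8% positive over all genes, and edgeR called 0 of the 5. Those of Ern1 and Eif2ak4, 0.0071 and 0.098, lay nearest to 0. Both were negative without cKO replicate 1, at -0.035 and -0.091.

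Regulators of the integrated stress response had no common direction, with 4 positive and 4 negative log2 fold changes and a median of -0.0017. Atf4 held 93.2, 56.7, 82.4 and 85.9 CPM in WT and 66.1, 75.6, 99.9 and 66.6 CPM in cKO libraries (log2 fold change -0.05, with a 95% interval from -0.42 to 0.33). The lowest and the highest library thus came from different groups, and the ranges overlapped over most of their length. Atf5, a related transcription factor abundant in this tissue, held 148, 127, 211 and 125 CPM in WT and 162, 139, 142 and 133 CPM in cKO, with WT replicate 3 above the rest (log2 fold change -0.08, with a 95% interval from -0.43 to 0.27). Atf5 overlaps Nup62 and Il4i1 on the opposite strand, and the strand setting of the counting is not given in the sources used here. The same limit holds for all 14 members that overlap a gene on the opposite strand, among them Hsp90b1, Pdia3, Psph and Ddit3, which overlaps Mars. The part of such genes in the levels of these members was not tested.

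Ddit3, which encodes CHOP, the factor tied to cell death under lasting ER stress, was among the steadiest members. It held 18.3, 17.4, 18.0 and 19.6 CPM in WT and 20.1, 18.6, 19.0 and 17.8 CPM in cKO, and its SD was 0.923 CPM in WT and 0.937 CPM in cKO libraries (log2 fold change 0.04, with a 95% interval from -0.19 to 0.28). A second Ensembl identifier with the same symbol was at 0 in every library and was not used. Trib3, a pseudokinase induced by ATF4 and CHOP, had the largest positive log2 fold change of the 32 genes, 0.40 (95% interval -0.22 to 1.02). It held 5.29, 3.00, 5.17 and 4.76 CPM in WT and 4.61, 5.49, 9.84 and 4.16 CPM in cKO, so that cKO replicate 3 stood above the other 7 libraries, and without it the log2 fold change was 0.05.

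Chac1, an enzyme that breaks down glutathione and a sensitive ATF4 target, held 2.30, 3.79, 2.63 and 4.00 CPM in WT and 6.17, 1.10, 2.41 and 1.26 CPM in cKO. The highest and the 2 lowest libraries were all cKO, and cKO replicate 1, the highest, was also the library with the most skeletal muscle transcript. Its log2 fold change was -0.19 with all libraries (95% interval -1.30 to 0.92) and -0.96 without cKO replicate 1 (unadjusted p = 0.0208, edgeR adjusted p = 0.600). Sesn2, a stress-induced inhibitor of mTORC1, ran between 10.8 and 19.3 CPM across WT libraries and between 8.76 and 16.5 CPM across cKO libraries (log2 fold change -0.41, with a 95% interval from -0.89 to 0.07, unadjusted p = 0.0895). The 2 phosphatase subunits that reverse eIF2 phosphorylation are inducible Ppp1r15a, with 9.95 ± 3.38 and 11.6 ± 1.15 CPM, and constitutive Ppp1r15b, with 143, 125, 108 and 178 CPM in WT and 129, 170, 139 and 152 CPM in cKO. Both had positive log2 fold changes, 0.22 and 0.09, with intervals that included 0.

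Among the metabolic genes, Asns, the asparagine synthetase that ATF4 induces when amino acids are short, was the most abundant per length. It held 37.4, 43.3, 34.1 and 37.2 CPM in WT and 35.3, 46.7, 46.5 and 45.9 CPM in cKO libraries (log2 fold change 0.20, with a 95% interval from -0.07 to 0.46, edgeR adjusted p = 0.894). Replicates 2, 3 and 4 of cKO lay above every WT library, and cKO replicate 1 lay near the bottom of the WT range. Without cKO replicate 1 the log2 fold change was 0.29 (unadjusted p = 0.0242, edgeR adjusted p = 0.608). That library had the highest sum of skeletal muscle markers, and the part of muscle RNA in its Asns level was not tested.

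The 3 enzymes that make serine from a glycolytic intermediate shared no common pattern. Phgdh, the first, held 10.2, 13.9, 10.5 and 14.3 CPM in WT and 20.7, 4.49, 13.4 and 16.3 CPM in cKO, so that both extremes were cKO libraries (log2 fold change 0.18, with a 95% interval from -0.73 to 1.09). It shares 56.3% of its 31-base sequences with other genes, which makes its estimated counts uncertain, while the other members share at most 12.3%. Gm7901, the gene that shares most with Phgdh (44.8%), was estimated at 0 in every library. Psat1, the second enzyme, ran from 4.61 to 5.63 CPM in WT and held 8.47, 3.89, 6.92 and 7.27 CPM in cKO libraries (log2 fold change 0.34, with a 95% interval from -0.14 to 0.83). Without cKO replicate 2, the library with the lowest Psat1 and Phgdh, the groups no longer overlapped for Psat1, at a log2 fold change of 0.52 (unadjusted p = 0.0135, edgeR adjusted p = 0.994). In that setting the groups did not overlap for 2 members, Herpud1 and Psat1, against 5.46% of all genes. Psph, the last enzyme, held 24.3, 22.7, 22.4 and 18.3 CPM in WT and 20.0, 20.2, 22.98 and 21.3 CPM in cKO, with all cKO values inside the WT range (log2 fold change -0.06, with a 95% interval from -0.32 to 0.20).

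In mitochondrial one-carbon metabolism, Shmt2, which moves a carbon from serine to folate, had a WT mean of 15.3 ± 3.09 and a cKO mean of 15.3 ± 2.25 CPM. Mthfd2, the next enzyme and a common ATF4 target, was scarce at 2.72 ± 0.618 and 2.80 ± 0.420 CPM. Aldh18a1, which starts proline synthesis, had 1.64 ± 0.536 and 1.82 ± 0.732 CPM. Slc7a11, the cystine transporter subunit, was near the detection limit at 0.972 ± 0.240 and 0.690 ± 0.376 CPM, and its log2 fold change of -0.44 was the most negative of the 32 (95% interval -1.43 to 0.55). Of the 8 metabolic genes 5 log2 fold changes were positive, the median was 0.10, and edgeR called 0.

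**Figure D4:**
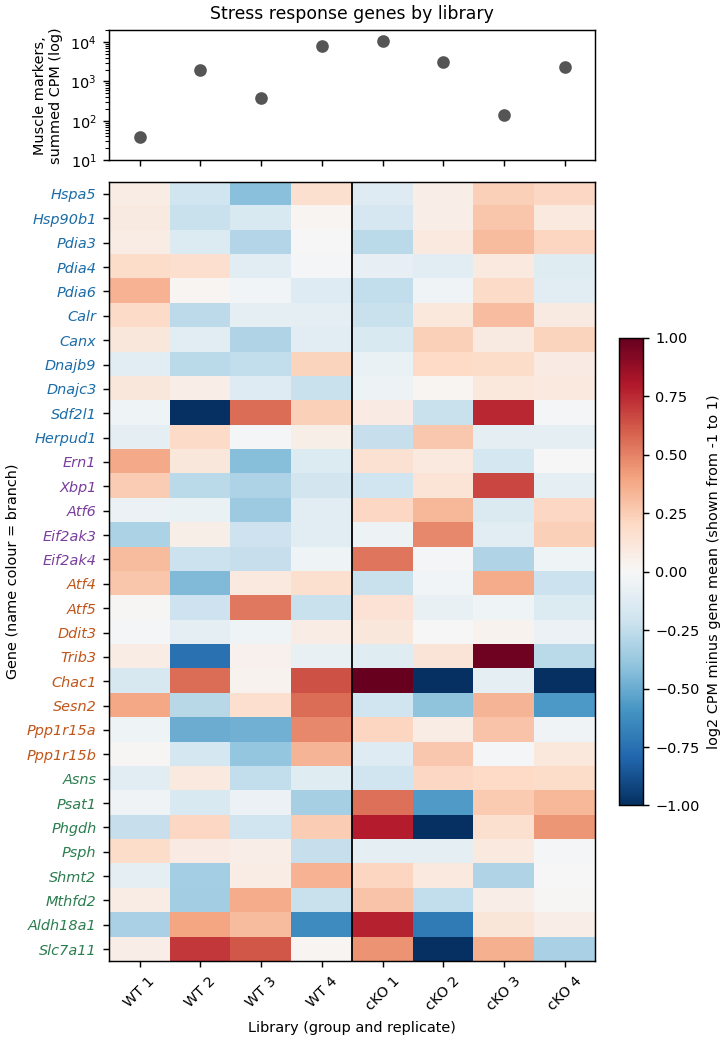
Log2 CPM of each gene in each library minus the gene's mean over 8 libraries (colour, shown from -1 to 1), below points for the summed CPM of 11 skeletal muscle markers on a log axis. Most ER folding genes are above their mean in cKO replicate 3 and below it in WT replicates 2 and 3, and Chac1, Phgdh and Aldh18a1 are highest in cKO replicate 1, where the muscle sum is 10410 CPM.

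Libraries of 1 group differed from each other in which members were high or low. The highest library was cKO replicate 3 for 8 of the 32 genes (25%, against 12.3% of all genes tested) and for 5 of the 11 ER folding genes. The lowest was WT replicate 2 for 10 genes (31.2%, against 8.4% of all genes). The median deviation of the ER folding genes from their means was 0.19 log2 units in cKO replicate 3 and 0.09 in WT replicate 1, the 2 libraries with the least muscle transcript (142 and 38.7 CPM), and -0.15 in cKO replicate 1, which held the most. It was 0.0031 in WT replicate 4, with the second highest muscle sum, 8182 CPM. In cKO replicates 2 and 4, at 3034 and 2302 CPM, it was 0.07 and 0.09. Among the cKO libraries the deviation was lower where the muscle sum was higher. Among the WT libraries, replicate 4 departed from that order. WT replicates 2 and 3 stood at -0.14 and -0.13, with muscle sums of 1944 and 378 CPM, and the part of muscle RNA in these deviations was not tested. With the 2 most muscle-rich libraries, WT replicate 4 and cKO replicate 1, left out, a choice made after seeing the data, edgeR again called 0 of the 32. The groups then did not overlap for Pdia3, Dnajb9, Ppp1r15a and Asns, 4 members, against 14.9% of all genes, and 4 members, Hspa5, Pdia3, Dnajb9 and Ppp1r15a, had an unadjusted p under 0.05, against 7.74% of all genes. The 8 metabolic genes had another order, with a median deviation of 0.32 in cKO replicate 1 and -0.40 in cKO replicate 2.

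Of 4 relations between members over the 8 libraries, 1 passed an exact permutation test. Hspa5 and Hsp90b1 varied together (Pearson r = 0.845, two-sided exact permutation p = 0.00923, adjusted p = 0.0369; Spearman rho = 0.857, exact p = 0.0107, adjusted p = 0.0429), with r = 0.865 without WT replicates 2 and 3, the 2 libraries farthest from the median of Hspa5. Hspa5 and Asns had r = 0.594 and rho = 0.548 (exact permutation p = 0.119 and 0.171, adjusted p = 0.238 and 0.342), with r = 0.636 without the same 2 libraries. Ddit3 and Trib3 had r = 0.424 and rho = 0.405 (exact permutation p = 0.298 and 0.327, adjusted p = 0.397 and 0.436), with r = 0.406 without cKO replicate 1 and WT replicate 2. Asns and Psat1 had r = -0.148 and rho = -0.214 (exact permutation p = 0.723 and 0.619, both unchanged by adjustment), with r = 0.0959 without WT replicate 3 and cKO replicate 2. Each group alone held 4 libraries, too few for a correlation within groups. How often other pairs of genes vary together as closely as Hspa5 and Hsp90b1 was not tested.

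**Figure D5:**
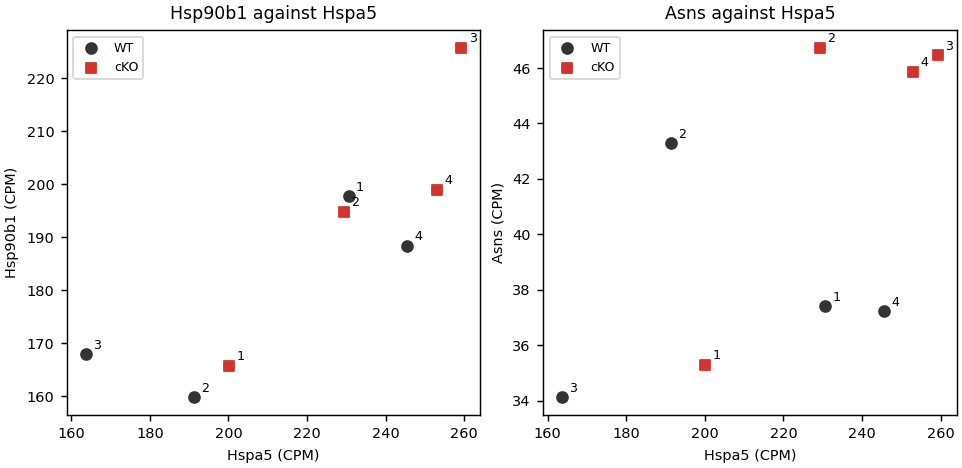
Hsp90b1 (left) and Asns (right) against Hspa5 in CPM, 1 point per library, circles for WT and squares for cKO, numbered by replicate. Hsp90b1 follows Hspa5 across both groups (r = 0.845), and in the right panel cKO replicates 2, 3 and 4 lie above the WT libraries while cKO replicate 1, at 35.3 CPM of Asns, does not.

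Other genes of the same pathways, taken from 4 lists of 93 genes in all, of which 89 were tested, also gave 0 calls by edgeR, DESeq2 and limma-voom. Their median log2 fold change was 0.04, 57 were positive and 32 negative, and 6 had an unadjusted p under 0.05, a share of 6.74% against 5.6% of all genes. The groups did not overlap for 2 of the 89, Ero1l and Sec61b, a share of 2.25% against 3.5% of all genes.

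In the list of 29 tested genes of ER folding and degradation, Derl1, a channel of ER-associated degradation, had 169 ± 25.9 and 182 ± 13.3 CPM, and P4hb, the most classical disulfide isomerase, 77.5 ± 7.54 and 78.9 ± 14.0 CPM. Ero1l, the oxidase that recharges the isomerases, ran between 24.2 and 29.6 CPM across WT libraries and between 30.1 and 32.9 CPM across cKO libraries (log2 fold change 0.23, unadjusted p = 0.0464, edgeR adjusted p = 0.884). Sec61b, a subunit of the ER translocation channel, ran the other way, between 15.6 and 18.8 CPM across WT libraries and between 10.4 and 15.04 CPM across cKO libraries (log2 fold change -0.45, unadjusted p = 0.00855, edgeR adjusted p = 0.853). Mbtps2, the protease that makes the final cut in ATF6, had 11.4 ± 0.989 and 14.1 ± 2.03 CPM (log2 fold change 0.31, unadjusted p = 0.04999, edgeR adjusted p = 0.884). Of the 29, 21 log2 fold changes were positive and 8 negative, or 72.4% positive against 51.8% of all genes, and the median was 0.06.

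In the list of 32 tested genes of the integrated stress response the median was 0.05. Slc1a5, a glutamine transporter, was the most abundant at 755 ± 109 and 638 ± 36.4 CPM (log2 fold change -0.24, unadjusted p = 0.0699). Cebpb, a partner of ATF4 that also acts in adipocyte differentiation and answers cyclic AMP, held a WT mean of 156 ± 27.1 and a cKO mean of 109 ± 30.2 CPM (log2 fold change -0.51, with a 95% interval from -0.93 to -0.10). Its adjusted p was 0.882 with the count filter and 0.0218 without it (log2 fold change -0.53), both by edgeR, and the groups overlapped. The hormone genes Fgf21 and Gdf15, both ATF4 targets, failed the filter. Fgf21 had 13, 4, 1 and 0 estimated counts in WT and 10, 17, 7 and 9 in cKO, or 0 to 0.404 CPM and 0.444 to 1.70 CPM. Its CPM did not overlap between groups, as was so for 2.05% of all genes tested without a filter. In the fit without a filter its log2 fold change was 2.02 (unadjusted p = 0.00214, edgeR adjusted p = 0.313). Gdf15 ran between 0 and 0.199 CPM across WT libraries and between 0 and 0.381 CPM across cKO libraries.

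Of 16 tested genes of serine, proline and one-carbon metabolism, 8 log2 fold changes were positive and 8 negative, the median was -0.01 and 0 had an unadjusted p under 0.05. Sfxn1, the mitochondrial serine carrier, had 131 ± 8.50 and 139 ± 10.9 CPM, and Aldh1l1, a cytosolic folate enzyme, 67.8 ± 17.5 and 81.3 ± 15.4 CPM.

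The 12 genes of the mitochondrial stress response had a median of 0.06. Hspd1, the chaperonin Hsp60, had a WT mean of 528 ± 84.2 and a cKO mean of 655 ± 81.0 CPM (log2 fold change 0.31, unadjusted p = 0.0466, edgeR adjusted p = 0.884), and Hspa9, the mitochondrial Hsp70, 927 ± 106 and 1005 ± 98.0 CPM (log2 fold change 0.12). The protease gene Lonp1 was on the other side, with 236 ± 22.5 and 199 ± 6.99 CPM (log2 fold change -0.25, unadjusted p = 0.0367, edgeR adjusted p = 0.882). Of the 12, 8 log2 fold changes were positive and 4 negative, and edgeR called 0.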

How the data were processed

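RNA of 8 brown fat libraries (4 WT, 4 cKO) was measured by RNA-seq. Per the submitters' processing notes, StringTie, Salmon and edgeR were used on GRCm38, with no versions given. The authors deposited estimated counts per Ensembl gene, with no normalisation, as their values show. These were rounded here to whole numbers. Libraries held 10713043 to 32437214 counts. Of 54385 genes, 54131 were named from GENCODE M21. Genes were filtered with edgeR's filterByExpr, leaving 14553, scaled by TMM and tested by edgeR 4.0.16's robust quasi-likelihood test (R 4.3.3) between cKO and WT, with Benjamini-Hochberg adjustment over all genes tested and a threshold of 0.05. The script was tested on simulated data, where it called 8.96% of 1.5-fold, 43.3% of 2-fold and 90.9% of 4-fold changes. DESeq2 1.42.0 and limma 3.58.1 (voom) were alternatives, as were other scalings and filters, a replicate block and leaving out each library. Per-length levels are counts per kilobase of the median protein-coding transcript, scaled to a common library total. Promoter windows came from RefSeq (GRCm38.p6) and covered 30 of the 32 genes. The members and lists were chosen with earlier results of these data known. Values in every library are given for members with an unadjusted p under 0.05 or without overlap and for the 3 highest per length in each role, and for some others chosen after their values were seen. The labels do not say that libraries came from separate animals, so p-values measure the spread between libraries, which may be technical. Depth limits scarce genes such as Slc7a11 most.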

Additional observations from a re-analysis of the deposited data

Results flagged for a closer look

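Over 39 genes and 78 groups of 4 libraries, 3 groups held a library far from the other 3, where chance gives about 1 in 20. Adcy3 in WT replicate 3 stood at 61.7 CPM, and the other WT libraries at 112 to 118 CPM. Asns in cKO replicate 1 stood at 35.3 CPM, and the other cKO libraries at 45.9 to 46.7 CPM. Pdia4 in cKO replicate 3 stood at 30.1 CPM, and the other cKO libraries at 25.9 to 26.6 CPM.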

How the results depend on the processing

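No alternative called any of the 32 genes, and the lowest adjusted p of a member was 0.528. The median log2 fold change over members stayed between 0.06 and 0.15. Calls over all genes numbered 10, against 46 with DESeq2's Wald test, 93 without a count filter and 1 with WT replicate 4 moved to cKO; the cause was not tested. Members with an unadjusted p under 0.05 numbered 1 of 32, where 5.6% of all genes passed. They numbered 2 with WT replicate 4 moved (7.02% of all genes), 2 without a filter (5.51%) and 4 without the 2 muscle-rich libraries (7.74%). When 1 library was left out they numbered 0 to 5, where 3.38% to 7.65% of all genes passed. The 5 arose without cKO replicate 1, the setting with 7.65%. The log2 fold change of Adcy3 was -1.26 with WT replicate 4 moved (edgeR adjusted p = 0.747) and -2.23 with a replicate block (adjusted p = 0.225). The labels do not pair the samples by replicate number. Same-number correlations of the deviations from the group mean varied, at -0.464, 0.035, 0.409 and 0.0016, and are too few to decide on pairing. The block called 0 members. With the longest transcript the WT per-length sums were 701 for ER folding, 57.5 for sensors and 75.5 for metabolic genes.

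Of the 32 members, 18 kept their direction in every alternative. With WT replicate 4 moved, signs turned for Aldh18a1 (-0.10), Atf4 (0.029), Chac1 (0.072), Dnajc3 (-0.022), Ern1 (-0.068), Mthfd2 (-0.063) and Shmt2 (0.20). Without the muscle-rich libraries they turned for Aldh18a1 (-0.25), Atf4 (0.064), Eif2ak4 (-0.10), Ern1 (-0.084), Herpud1 (0.0079), Mthfd2 (-0.11) and Shmt2 (0.055). Ern1 was -0.012 without a filter and -0.0032 with upper quartile factors. Shmt2 was 0.0029 with DESeq2's test, 0.0028 with its size factors, 0.0080 with voom, 0.0071 without mitochondrial genes and 0.0060 with the replicate block. Leaving out 1 library gave -0.10 to 0.35 for Aldh18a1, -0.20 to 0.038 for Atf4, -0.16 to 0.12 for Atf5, -0.96 to 0.059 for Chac1, -0.091 to 0.24 for Eif2ak4, -0.11 to 0.16 for Ern1, -0.18 to 0.0032 for Herpud1, -0.041 to 0.19 for Mthfd2, -0.19 to 0.0017 for Pdia6, -0.076 to 0.46 for Phgdh, -0.0062 to 0.24 for Ppp1r15b, -0.058 to 0.44 for Sdf2l1 and -0.090 to 0.13 for Shmt2. Slc7a11 was not tested under a filter of 1 CPM in 4 libraries.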
